A study of Mus musculus with 8 samples.

Results

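The 8 genes described here mark Schwann cells, the glia of peripheral nerve, and the myelin they make: Mbp, Pmp22, Prx, Drp2, Mag, Ncmap, Sox10 and Cdh19. They were chosen by name, as genes of peripheral myelin and of the Schwann cell lineage, and matched by mouse Ensembl identifier. Earlier results of these data were known when they were chosen. All 8 were found among the 23008 mouse genes with values. All 8 also passed the minimum for testing, a mean of at least 10 normalised reads over the libraries.

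The material was gastrocnemius, the large calf muscle, of wild-type C57BL/6J mice, with RNA sequenced from 8 libraries. Every mouse had received AAV9, an adeno-associated virus that reaches muscle from the blood, carrying the construct that the labels call GNDM. The guide was m31, directed at Lama1, in 4 libraries and a non-targeting control in the other 4. The dose and the promoter that drives the construct are not stated. Animals were injected through the tail vein at an age given as 7 weeks in one label and 7 to 12 weeks in another, and muscle was taken 11 weeks later. No group without the virus was analysed here, so both groups share the virus and the construct. Lama2 is intact in these animals, which therefore do not model Lama2 deficiency. Separate animals are not stated for the libraries. The p-values therefore describe spread among samples of a group, some of which may be technical.

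A Schwann cell of a myelinated axon wraps its membrane into a compacted spiral, leaves thin channels of cytoplasm open along the outside, and rests on a basement membrane. Laminin-211, the laminin with the Lama2 chain, lies in that basement membrane and is bound by dystroglycan and integrins on the Schwann cell surface. Loss of Lama2 harms the myelination of peripheral nerve as well as muscle, in mice and in patients. In a muscle sample, the nerve branches that run between the fibres carry these transcripts.

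Depth was high: 25157486 to 39210248 reads lay in mouse genes per library. The smallest count behind any value of the 8 genes was 38 reads, for Mag and Cdh19, and the largest 2804 reads, for Pmp22. Muscle was the main tissue by its fibre genes, the 8 listed summing to 4088650 to 5604610 normalised reads per library. Of 6 genes restricted to oligodendrocytes, the myelinating glia of the brain, 2 had values and summed to at most 13.6 normalised reads in any library. Of 7 melanocyte genes, 4 of the 5 with values stayed under the minimum, among them Pmel, Dct and Mlana. Mitf, which muscle and many other tissues also express, made up 95.8% of that list's signal.

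Promoter sequences, 250 bases before to 50 after a transcription start in RefSeq on GRCm38.p6, were at hand for 4 of the 8 genes: Pmp22, Prx, Mag and Ncmap, in 10 windows. Those of Pmp22 and Prx are shown because these genes varied together between libraries, and that of Mag because Mag followed them less closely. All 3 are written 5′ to 3′ along the gene. They are chr11:63128732-63129031 on the plus strand for Pmp22, chr7:27499074-27499373 on the plus strand for Prx, and chr7:30914814-30915113 on the minus strand for Mag.
Pmp22: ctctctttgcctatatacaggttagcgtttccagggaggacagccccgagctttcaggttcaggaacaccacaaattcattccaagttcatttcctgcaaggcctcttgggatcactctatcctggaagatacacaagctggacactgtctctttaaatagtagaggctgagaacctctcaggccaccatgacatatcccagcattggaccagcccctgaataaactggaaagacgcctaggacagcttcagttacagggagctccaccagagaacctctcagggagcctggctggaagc
Prx: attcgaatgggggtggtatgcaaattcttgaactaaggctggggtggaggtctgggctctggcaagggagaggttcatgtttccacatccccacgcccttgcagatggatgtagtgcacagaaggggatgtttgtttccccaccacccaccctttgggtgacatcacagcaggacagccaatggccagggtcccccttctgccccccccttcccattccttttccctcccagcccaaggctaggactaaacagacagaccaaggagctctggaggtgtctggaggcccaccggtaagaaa
Mag: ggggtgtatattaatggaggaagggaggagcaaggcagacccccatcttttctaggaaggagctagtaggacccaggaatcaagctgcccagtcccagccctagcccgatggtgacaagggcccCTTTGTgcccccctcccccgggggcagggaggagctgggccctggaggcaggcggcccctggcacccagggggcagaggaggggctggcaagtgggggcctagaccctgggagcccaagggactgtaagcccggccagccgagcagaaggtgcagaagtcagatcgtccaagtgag
Capitals mark a match to ACAAAG on either strand, a core of the sites that SOX factors bind. ACAATG, another such core, and GTGGGCG, a core of the sites of EGR factors, were searched in the same way. The Mag window held 1 match, on the opposite strand, beginning 126 bases before the start. Another Mag window that overlaps it held the same match, and the remaining Mag window held none. The windows of Pmp22, Prx and Ncmap held no match to any of the 3. ACAAAG occurred in 18.7% of all 32851 windows, ACAATG in 12.6% and GTGGGCG in 7.97%, so a match in such a window is common. The windows differed in composition: the Pmp22 window shown had 50.7% G and C, the Prx window 56.7% and the Mag window 65.0%, against a median of 52.7% over all windows.

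The comparison asked whether nerve and myelin transcripts differed between muscle with the Lama1-targeting guide and muscle with the control guide. All 8 genes had lower group means with m31, at 70.9 to 92.6% of the control mean. None passed the test over all genes, in which 1 of 15960 genes was called (0.00627%), that gene being higher, and 0% were called lower. Of all genes tested, 48.7% had a log2 difference below 0, and the median difference was 0.01, against a median of -0.36 over the 8. The 8 are not independent of each other and were chosen with earlier results of these data known, so their shared direction was not tested. In none of the 8 were all 4 m31 libraries below all 4 control libraries, a pattern seen in 2.02% of the genes tested, and the opposite pattern, seen in 1.84%, also occurred in 0 of the 8. With DESeq2 on the recovered reads, 0.232% of genes were called (0.0877% lower with m31), and again 0 of the 8. Differences are m31 minus control on the log2(value + 1) scale throughout, and values are reads divided by the authors' size factors.

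**Figure D1:**
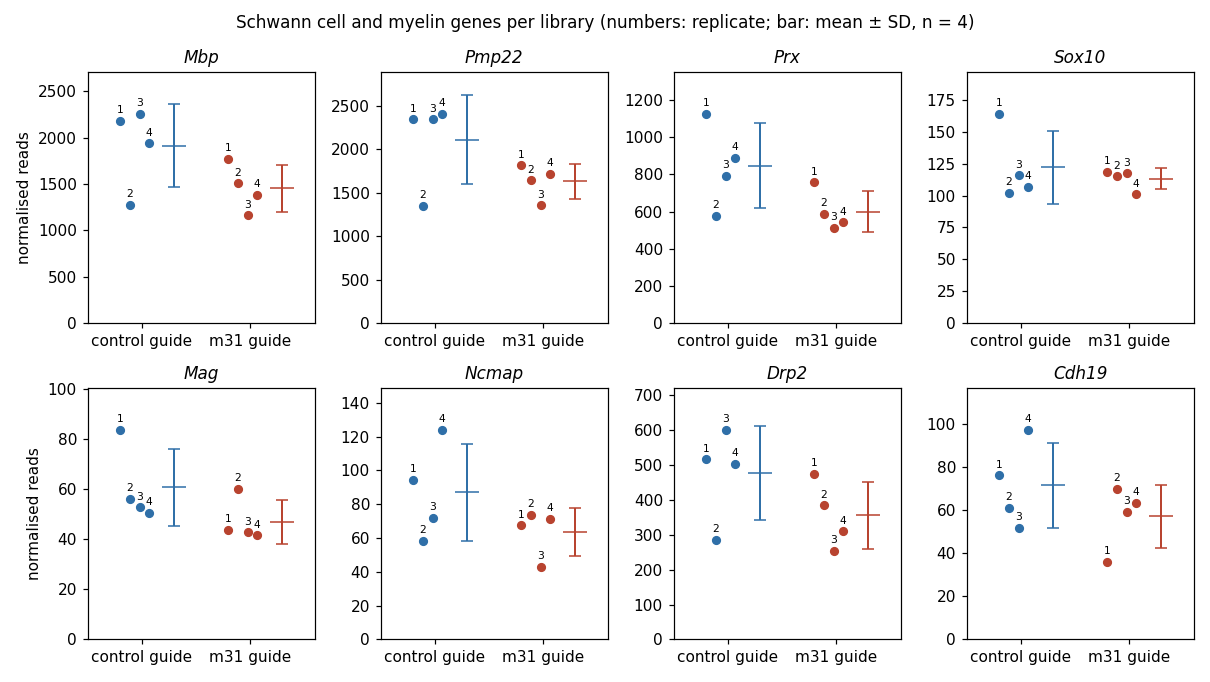
Normalised reads (linear axis from 0) of the 8 genes in each library with the control guide (blue) and the m31 guide (red); digits are replicate numbers and bars the mean ± SD of 4 libraries. In Mbp, Pmp22, Prx and Drp2, control replicates 1, 3 and 4 lie above all 4 m31 libraries, and control replicate 2 lies among them or, in Pmp22, just below them.

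Of the genes of compact myelin, Mbp encodes myelin basic protein, which holds the inner faces of the wrapped membrane together. In m31 replicates 1 to 4, Mbp had 1771, 1508, 1161 and 1387 normalised reads, and in control replicates 1 to 4 it had 2183, 1278, 2259 and 1941. Control replicates 1, 3 and 4 were above every m31 library, while control replicate 2 was below 3 of the 4. The means were 1457 ± 254 with m31 and 1915 ± 446 with the control guide (SD, n = 4 each). The log2 difference was -0.38 ± 0.18 (SE; 95% interval -0.78 to 0.02), with limma's adjusted p = 0.749. Mbp has 16 annotated transcripts on chromosome 18, some of which are expressed outside myelin, and a count per gene does not tell them apart.

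Pmp22 encodes a small membrane protein of compact myelin whose duplication causes the commonest inherited demyelinating neuropathy in humans. Its levels were 1818, 1643, 1354 and 1717 normalised reads in m31 replicates 1 to 4 and 2347, 1349.8, 2347 and 2411 in the control replicates. The pattern was that of Mbp, with 3 control libraries close together and above every m31 library, and control replicate 2 below all 4 m31 libraries. The log2 difference was -0.34 ± 0.18 (SE; 95% interval -0.73 to 0.05), with limma's adjusted p = 0.772. Fibroblasts and other cells also express Pmp22.

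Prx and Drp2 belong to a complex that links the Schwann cell cytoskeleton to laminin. Prx encodes periaxin, a scaffold that binds dystrophin-related protein 2, the product of Drp2, which in turn is held to dystroglycan at the outer membrane. Prx stood at 758, 589, 512 and 542 normalised reads with m31 and at 1126, 578, 792 and 890.1 with the control guide, in the order of the replicates. Only control replicate 2 overlapped with the m31 libraries, lying below m31 replicates 1 and 2. The log2 difference of -0.47 ± 0.19 (SE) was the largest of the 8 and the only one whose 95% interval, -0.89 to -0.05, did not include 0. Its unadjusted p was 0.0303 and limma's adjusted p 0.720 over all genes. An unadjusted p under 0.05 was reached by 6.79% of all genes (3.03% lower with m31) and by 1 of these 8.

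Drp2 levels were 474, 385, 253 and 310.1 normalised reads in the m31 libraries and 516, 285, 600.1 and 504 in the control replicates. Again control replicates 1, 3 and 4 were above every m31 library and control replicate 2 lay among them. The log2 difference was -0.41 ± 0.24 (SE; 95% interval -0.94 to 0.12), with limma's adjusted p = 0.791. It was -0.64 without control replicate 2 and -0.26 without m31 replicate 3. Prx lies on chromosome 7 (27499324 to 27520214, plus strand, GRCm38) and shares 300 of its 5579 exon bases with Gm15541, an antisense gene that had a mean of 4.27 normalised reads. Without a known strand setting those reads cannot be told apart, but that level is small beside the mean of 723 for Prx. No annotated exon of another gene overlapped the exons of the other 7.

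Mag and Ncmap are also proteins of the non-compacted parts of the myelin sheath. Mag encodes myelin-associated glycoprotein, an adhesion molecule on the membrane that faces the axon, and Ncmap a membrane protein of non-compact myelin. Mag stood at 43.7, 60.2, 42.8 and 41.7 normalised reads with m31 and at 83.7, 56.3, 52.8 and 50.6 with the control guide. The groups overlapped through m31 replicate 2, which was above 3 of the control libraries, while control replicate 1 was far above the rest. The log2 difference was -0.35 ± 0.21 (SE), with limma's adjusted p = 0.798, and it was -0.19 without control replicate 1. Ncmap stood at 67.4, 73.7, 42.8 and 71.3 with m31 and at 94.6, 58.2, 71.9 and 124 with the control guide, with a difference of -0.42 ± 0.26 (SE) and limma's adjusted p = 0.803. Its highest library was control replicate 4 and its lowest m31 replicate 3, a 2.90-fold range that was the widest of the 8. Without either of these libraries the Ncmap difference was -0.23 and -0.24, respectively.

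The lineage genes are Sox10, the transcription factor that keeps Schwann cells in their fate and switches on myelin genes, and Cdh19, a cadherin of the Schwann cell lineage. Sox10 levels were 119, 115, 117 and 101 normalised reads in the m31 libraries and 164, 102, 116 and 107 in the control replicates. Apart from control replicate 1, all 7 libraries lay between 101 and 119, so the groups overlapped almost fully. The log2 difference was -0.09 ± 0.16 (SE; 95% interval -0.45 to 0.28), with limma's adjusted p = 0.943, and it was 0.062 without control replicate 1. Cdh19 stood at 36.1, 70.1, 59.2 and 63.3 with m31 and at 76.2, 61.1, 51.7 and 97.3 with the control guide, a difference of -0.32 ± 0.25 (SE) with limma's adjusted p = 0.842. Its lowest library was m31 replicate 1, which was the highest m31 library for Mbp, Pmp22, Prx and Drp2. The Cdh19 difference was -0.12 without that library and -0.16 without control replicate 4.

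Counting error alone was 2.27 to 4.84% of the mean read count for Mbp, Pmp22, Prx and Drp2. The spread between control libraries of these 4 was 23.3 to 28.2% of the mean, so the libraries and not the depth set their error. For Mag, Ncmap and Cdh19 counting error was 11.4 to 13.2%. For Sox10 it was 8.97%, above the spread of 7.24% between the m31 libraries.

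**Figure D2:**
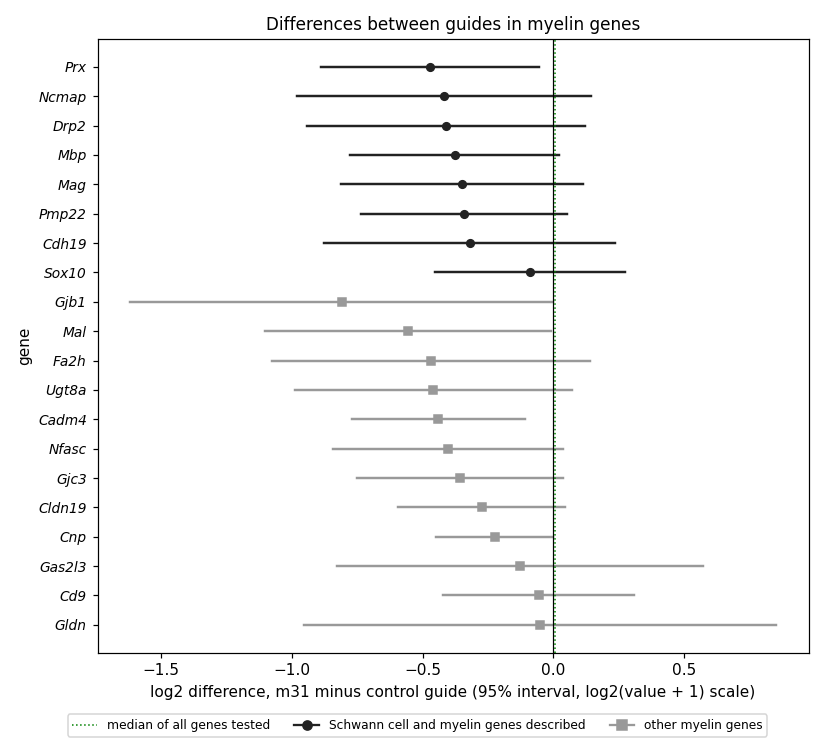
Log2 difference between guides (x axis, log2(value + 1) scale) with its 95% interval from limma for the 8 genes (circles) and the 12 other myelin genes tested (squares); the dotted line is the median of all genes tested, 0.01. All 20 estimates lie below 0, from -0.81 to -0.05, and most intervals reach past 0.

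In Mbp, Pmp22, Prx and Drp2 the groups overlapped through control replicate 2 alone. It was the control library in which 7 of the 8 genes were among the lower 4 of the 8 libraries, against 0 in control replicate 1, 1 in replicate 3 and 2 in replicate 4. Averaged over the 8 genes, its log2 level relative to the mean of the libraries was -0.25, within the m31 range of -0.39 to -0.03, while the other control libraries were at 0.46, 0.17 and 0.32. Without control replicate 2, all m31 libraries were below the remaining control libraries in 4 of the 8 genes, Mbp, Pmp22, Prx and Drp2, a pattern then seen in 3.92% of all genes. The log2 differences of these 4 were then -0.54 to -0.64, and limma's adjusted p was 0.432 to 0.623. Then 3.38% of all genes were lower at an unadjusted p under 0.05, among them these 4 and Ncmap. That library was singled out after its values were seen, so the figures without it describe its weight and are not a test. In the markers of other cells it had the lowest summed macrophage level of the 8 libraries, 2879 normalised reads, and the highest muscle fibre level, 5604610. Control replicates 1 and 4, highest for the mean of the 8 genes, had the next lowest macrophage levels, 3164 and 3298. Control replicate 1 also had the next highest muscle fibre level, 5119470. Whether these levels bear on the myelin level of control replicate 2 was not tested.

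Among themselves, 4 of the 8 genes varied closely together, and the others followed them less closely, Cdh19 least. Across the 8 libraries, Mbp, Pmp22, Prx and Drp2 had pairwise Pearson r of 0.85 to 0.98 and Spearman rho of 0.86 to 1.0 on the log2 scale. Mbp and Drp2 ranked the libraries identically (r = 0.98), and r stayed at 0.98 after the group means were removed. Removing the group means left the r of the 6 pairs at 0.80 to 0.98, so the joint variation was also present within the groups. Leaving out the 2 libraries farthest from the Mbp median left r of Mbp at 0.93 with Pmp22, 0.962 with Prx and 0.965 with Drp2. Ncmap had r of 0.71 to 0.83 with these 4. With Sox10, Mbp had r = 0.52 (rho 0.38), with Mag 0.49 (rho 0.43) and with Cdh19 0.08 (rho 0.14). Prx had higher values over the 8 libraries, with r = 0.69 with Sox10 (rho 0.43) and 0.64 with Mag (rho 0.60). Without the 2 libraries farthest from the Prx median these r were 0.45 and 0.16. For Mbp, without the 2 farthest from its own median, r was 0.76 with Sox10 and 0.47 with Mag. Sox10 and Mag had r = 0.73, but rho of 0.31, since control replicate 1 was the highest library for both, and without the 2 libraries farthest from the Sox10 median r was -0.49. These values are descriptions over 8 libraries, with no test, and all genes of a library share its RNA and its size factor. Cdh19 and Mag rested on 38 to 100 reads, where counting error lowers any correlation.

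**Figure D3:**
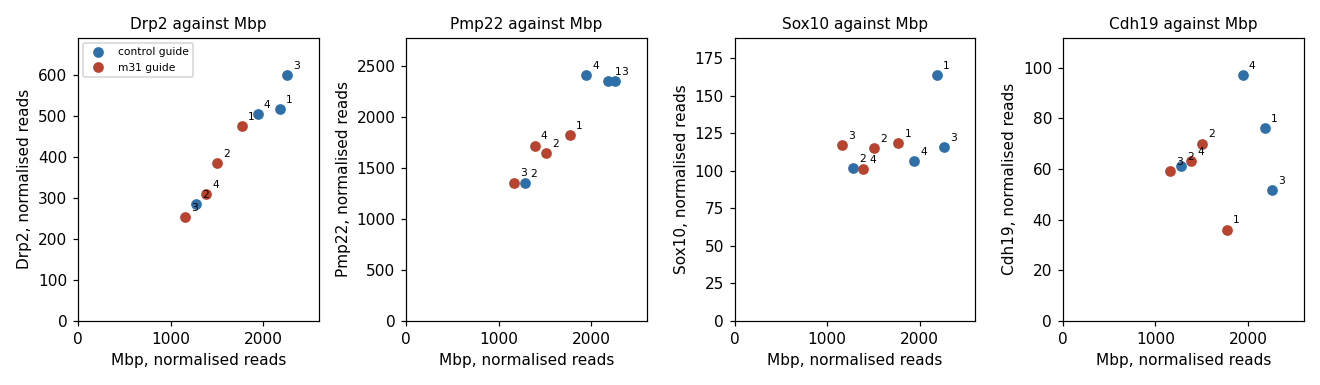
Normalised reads of Drp2, Pmp22, Sox10 and Cdh19 (y axes) against those of Mbp (x axis) in the 8 libraries, with control guide in blue, m31 guide in red and digits for replicates. Drp2 and Pmp22 follow Mbp closely in both groups, whereas Sox10 stays between 101 and 119 in 7 libraries and Cdh19 shows no common order.

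The ratio of Mbp to Sox10 reads gives the same contrast in another form. It was 14.9, 13.1, 9.89 and 13.7 in m31 replicates 1 to 4 and 13.3, 12.5, 19.5 and 18.2 in control replicates 1 to 4. Control replicates 3 and 4 were above the other 6 libraries, and the groups overlapped. In bulk tissue, fewer Schwann cells in a sample and less myelin RNA per cell cannot be told apart.

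Per kilobase of annotated exon, the levels covered a wide range. Pmp22 was highest, with a median of 751 normalised reads per kb over the 8 libraries (range 573 to 1024), above 92.0% of the genes tested by its mean. Mbp followed at 194 (137 to 267) and Prx at 121 (91.7 to 202), and these ranges overlapped each other but neither that of Pmp22 above nor that of Drp2 below. Drp2 at 50.2 (29.6 to 70.2), Sox10 at 37.8 (33.1 to 53.8) and Ncmap at 32.2 (19.2 to 55.6) formed an overlapping middle group. Cdh19 at 14.5 (8.43 to 22.7) and Mag at 12.7 (10.2 to 20.6) were lowest and not separated from each other, and both reached into the range of Ncmap. Exon length here is the union over all annotated transcripts, which understates the level of a gene whose long transcripts are rare in Schwann cells.

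Other myelin genes, in a list of 14, were examined next. Of these, 12 passed the minimum, and all 12 had negative estimates, with a median log2 difference of -0.38. None passed the test over all genes, the smallest adjusted p by limma being 0.678, and in none did the groups separate. That smallest p belonged to Cadm4, an adhesion molecule of the Schwann cell surface along the internode. Its levels were 209, 195, 166 and 191 normalised reads in the m31 libraries and 314, 197, 254 and 279.8 in the controls. Control replicates 1, 3 and 4 were above every m31 library, and control replicate 2 lay among them. The log2 difference for Cadm4 was -0.44 ± 0.15 (SE; 95% interval -0.77 to -0.11). Cnp, an enzyme of myelin-forming glia, had a difference of -0.22 ± 0.10, and the widely expressed tetraspanin Cd9 -0.05 ± 0.17.

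Mal, a protein of myelin membrane transport, was named after its values were seen. It differed by -0.56 ± 0.25 (SE), and its control replicate 2 stood at 131 normalised reads against 245 to 255 in the other control libraries. Without control replicate 2, 8 of the 12 were separated between groups, against 3.92% of all genes, again with 0 past the threshold. Here too that library was singled out after its values were seen, so the count describes its weight and is not a test.

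The genes that control Schwann cells were divided in direction. In a list of 15 regulators, 12 were tested: 5 had negative and 7 positive estimates, with a median of 0.02, and none passed. Egr2, the transcription factor that drives myelination with Sox10, stood at 38.9, 49.4, 32.8 and 59.3 normalised reads with m31 and at 40.2, 48.6, 47.2 and 29.3 with the control guide. Its difference of 0.11 ± 0.24 (SE; 95% interval -0.42 to 0.64) turned to -0.038 without control replicate 4 and to -0.027 without m31 replicate 4. Erbb3, the neuregulin receptor of Schwann cells, differed by -0.17 ± 0.16 (SE; -0.035 without m31 replicate 4 and -0.27 without m31 replicate 3), at 173 ± 38.8 against 191 ± 12.7 (SD, n = 4 each). Both were named after their values were seen; the 3 most abundant genes of that list, Tead1, Yy1 and Hdac3, are expressed in muscle and most other tissues. Whether the regulators and the myelin genes differ from each other was not tested.

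Genes of the Schwann cell that are mutated in inherited neuropathy, 8 in all, had 4 negative and 4 positive estimates with a median of -0.05. Among them Ndrg1, a cytoplasmic protein of Schwann cells, differed by -0.14 ± 0.12 and Fgd4, a regulator of the GTPase Cdc42, by 0.25 ± 0.18 (SE). Single libraries moved both: Ndrg1 to -0.25 without control replicate 2 and -0.084 without control replicate 3, and Fgd4 to 0.083 without control replicate 2 and 0.42 without control replicate 4. In the same list, Dhh differed by -0.36 ± 0.21 and Sh3tc2 by -0.24 ± 0.19 (SE), each with 3 control libraries above every m31 library. The control library that overlapped was replicate 2 in Dhh, at 29.6 normalised reads, and replicate 3 in Sh3tc2, at 56.2. Hdac3 and Art3 also had 3 control libraries above every m31 library, and the share over all genes was not counted. Dhh and Sh3tc2 were named after their values were seen. The values are those of the whole tissue, in which Ndrg1 had a mean of 671 normalised reads against 118 for Sox10. Of 14 genes of non-myelinating and injury-activated Schwann cells, 10 were tested, with 7 negative and 3 positive estimates and a median of -0.10. Gfap, which non-myelinating Schwann cells express, stayed under the minimum, as did Shh and Gdnf, which Schwann cells switch on after nerve injury. Of those tested, Gap43 differed by 0.63 ± 0.45, Bdnf by -0.77 ± 0.49, Ngfr by -0.26 ± 0.27 and Jun by -0.05 ± 0.23 (SE). They were named after their values were seen. Gap43 rested on 4 to 25 reads, Bdnf on 6 to 36 and Ngfr on 17 to 37. In Bdnf, control replicate 4 stood at 48.0 normalised reads and the other control libraries at 17.2 to 19.1. Its m31 replicates 1 and 3, at 23.7 and 21.8, were above those other control libraries. Art3 made up 55.9% of that list's signal. None of these 18 passed over all genes, the smallest adjusted p by limma being 0.765.

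**Figure D4:**
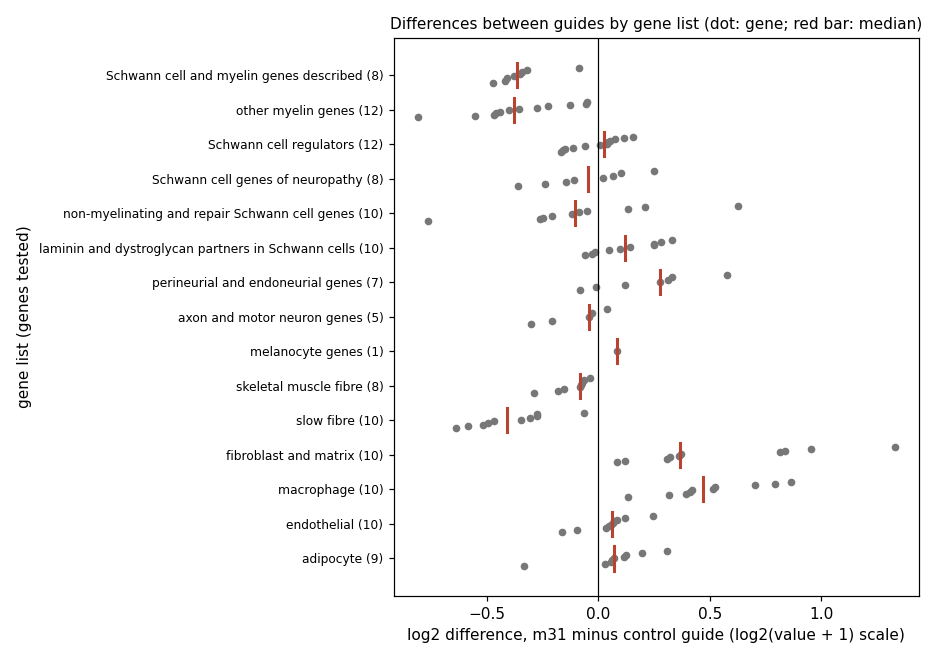
Log2 difference between guides (x axis, log2(value + 1) scale) of every gene tested in each list (rows, number tested in brackets); each dot is a gene and the red bar is the list's median. The medians of the 8 genes described, of the other myelin genes and of the slow fibre genes are -0.36, -0.38 and -0.41. Those of the regulators and of the fibroblast and macrophage lists are 0.02, 0.37 and 0.47.

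On the laminin side, 10 genes of the chains and receptors that Schwann cells use had 3 negative and 7 positive estimates and a median of 0.12, none of them past the threshold. Muscle fibres and vessels express these genes as well, so the values are those of the whole tissue. Dag1, dystroglycan, differed by 0.05 ± 0.08 (SE), and Lama2 by 0.25 ± 0.18. With single libraries left out, Dag1 ranged from 0.011 (control replicate 1) to 0.096 (control replicate 3), and Lama2 from 0.12 (control replicate 2) to 0.44 (control replicate 3), with 0.15 without m31 replicate 4. Of 8 perineurial and endoneurial genes, the cells and fibroblasts around the nerve fibres, 7 were tested, with 5 positive and 2 negative estimates and a median of 0.28. Cldn1, a tight junction gene of the perineurium, stood at 133 ± 17.2 with m31 and 106 ± 14.0 with the control guide (SD, n = 4 each; difference 0.33 ± 0.15, limma's adjusted p = 0.731). Slc2a1, the glucose transporter of perineurium and vessels, differed by -0.08 ± 0.09 (-0.13 without m31 replicate 2). Axon transcripts are made in neuron cell bodies outside the muscle and few reach it: 5 of 12 genes were tested, with a median of -0.04, and Uchl1 differed by -0.21 ± 0.29 (SE).

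Markers of other cells were summed per library. All 10 macrophage genes and all 10 fibroblast and matrix genes had positive estimates, with medians of 0.47 and 0.37 and 0 past the threshold. Summed macrophage levels were 3958 to 9590 normalised reads in the m31 libraries and 2879 to 6803 in the controls, and summed fibroblast levels 43589 to 181293 and 33529 to 59597. The highest were m31 replicate 4 for both, and control replicate 3 within its group. Leaving out both of those libraries left the median of the 8 genes at -0.33. Endothelial genes (10 tested, 2 negative, median 0.06), adipocyte genes (9 tested, 1 negative, median 0.07) and Mitf (0.08) also had none past the threshold. The 10 slow fibre genes all had negative estimates, with a median of -0.41 and 0 past the threshold. In Myh7, slow myosin, and Tpm3, slow tropomyosin, all m31 libraries were below all control libraries, a pattern seen in 2.02% of the genes tested. So it was in Mylpf among the 8 general muscle fibre genes, which had a median of -0.08. Summed slow fibre levels were 20048 to 42050 normalised reads in the m31 libraries and 35316 to 43999.6 in the controls. Control replicate 2, low for myelin, was the highest. Control replicate 1, highest for the mean of the 8 genes, was close to it at 43733. The part of any of these cell types in the myelin values was not tested.

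The genes most like the 8 were sought among 15952 others, by Pearson r over the 8 libraries with the mean of the 8 genes, each scaled to unit variance. The closest 10 had r of 0.91 to 0.97, and 10 genes reached 0.9. They included the myelin list's Cadm4 (r = 0.97) and Mal (0.93). Also among them were Tmem18, Pds5b, Dusp15, Rmi1, Gm14539, Bloc1s1 and Nkain2, with r of 0.97 for Tmem18 and 0.96 for Pds5b. Dusp15, a phosphatase known from myelinating glia, had r = 0.95. With group means removed from the genes and from the mean of the 8, Cadm4 again came first (0.98), and Tmem18, Pds5b and Dusp15 were also among the closest 10 in both rankings. With so many genes and 8 libraries, high values arise for genes with no link to nerve, and these are given as a description.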

How the data were processed

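RNA-seq of 8 gastrocnemius libraries was analysed, 4 per guide, grouped by sample title. The authors deposited a normalised signal: each gene's reads over a size factor specific to the library. STAR and DESeq2 are named in the submitters' processing notes, as is the human build GRCh38.p12, although the genes carry mouse Ensembl IDs. How reads were counted, and with which strand setting and annotation, is not stated there. Of 11 value columns, the 8 matching the labels' library names were used and 3 were not. In these, 100% of values were whole reads within 0.01, so reads and depth (25157486 to 39210248 in genes per library) could be recovered. Construct entries (5) were left out. Symbols were matched for 22979 of 23008 genes.

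The fit used limma 3.58.1 (R 4.3.3) on log2(value + 1) (intensity trend, group as the only term) for the 15960 genes with a mean of at least 10. P-values were adjusted by Benjamini-Hochberg over all of these, with a threshold of 0.05. The design foresaw edgeR for raw counts and this fit for normalised values. Alternatives are given in the closing section and include edgeR 4.0.16 and DESeq2 1.42.0 on recovered reads. The fit was tested on simulated counts with changes larger than those of the 8 genes. It therefore does not tell how often differences of their size would be called. Replicates differed beyond sampling noise (chi-square per degree of freedom 13.0 to 52.2). Gene positions and exon lengths come from GENCODE M21 (GRCm38) and promoters from RefSeq (GRCm38.p6). The 8 genes, the 15 other lists and the naming rule were chosen with earlier results of these data known. The rule named, per list, the 3 most abundant genes tested and any past the threshold or with separated groups, and the 10 genes most like the 8; a part of these is printed. Some genes of the myelin list are not reported here, and its counts are without them.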

Additional observations from a re-analysis of the deposited data

Results flagged for a closer look

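In groups of 4, a library was singled out where its gap to the next exceeded Dixon's 95% critical share of the group's range. This was checked in 80 groups and found in 11, where chance gives about 1 in 20. Pmp22 had its lowest control library at 1349.8 normalised reads (replicate 2, gap 0.94 of the range), and Mal, of the other myelin genes, at 131 in the same library (0.92). Mag had a high m31 library at 60.2 (replicate 2, 0.89) and a high control library at 83.7 (replicate 1, 0.83). Myh7 had a low m31 library at 2905 (replicate 4), without which its log2 difference was -0.38 in place of -0.64.

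Among the summed lists, control replicate 3 was high for macrophage genes at 6803 normalised reads, for laminin and dystroglycan partners at 27641 and for axon genes at 379.9. M31 replicate 4 was high for fibroblast and matrix genes at 181293 and macrophage genes at 9590.3 and low for endothelial genes at 12635. Neither of these libraries was the highest or the lowest for the mean of the 8 genes.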

How the results depend on the processing

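Under 19 alternatives the 8 genes gave 152 log2 differences, of which 151 were negative. All are refits of the same libraries, and the filter and block settings left the differences unchanged, so this count is not independent support. The exception was Sox10, at 0.062 without control replicate 1 (-0.16 to 0.062 over single libraries left out). None of the 8 passed the threshold in any, with adjusted p of 0.270 (Prx, library weights) to 0.993. The median of the 8 stayed between -0.55 and -0.27. The number of genes called over all genes was 1 as reported, 37 by DESeq2 (adjusted p missing for 339 genes), 1 by edgeR (1135 at an unadjusted p under 0.05), 3 without m31 replicate 4 and control replicate 3, and 1 to 2 when single libraries were left out. The number of the 8 separated between groups was 0 as reported, where 2.02% of all genes were separated and lower with m31. It was 0 to 4 when single libraries were left out. Without control replicate 2 it was 4, against 3.92% of all genes, and without m31 replicate 2 it was 1. The share of all genes without m31 replicate 2 was not counted, and leaving out any library makes separation easier. Values that changed sign were Egr2 (-0.038 without control replicate 4, -0.027 without m31 replicate 4; range -0.038 to 0.25), Cd9 (0.012 without control replicate 1, 0.013 without control replicate 4, 0.0047 without m31 replicate 1; range -0.22 to 0.013) and Uchl1 (0.054 without control replicate 3; range -0.35 to 0.054); the cause was not tested. With a replicate block the median of the 8 was -0.36, and the block changed no call. Equal replicate numbers did not mark shared deviations (correlations 0.05, -0.05, -0.13 and -0.18), so the samples share only a number. The spread between libraries exceeded counting error for the 8 genes in both groups, except for Sox10 with m31.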
